A study of Homo sapiens with 12 samples.

Results

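IRS2, ARRDC2, SCNN1A, PHACTR3, GLUL, CDKN1C, LPIN1 and TXNIP are 8 genes grouped here as metabolic and transport targets of glucocorticoids, and their probes were followed over 4 groups of HEK293 cells, a human embryonic kidney line. Members were all probes whose annotated symbol is one of these genes, 15 of the 47312 probes on the array. Of these, 11 were kept because they were detected by their detection p-value (below 0.01) in 3 or more of the 12 samples, and each of the 8 genes had at least 1 kept probe. The study used isogenic HEK293 derivatives, grown with hygromycin B, with a stably expressed glucocorticoid receptor, either wild type (wtGR) or a SUMOylation-defective form (GR3KR). Cells were held for 36 h in medium with 2.5% stripped serum and then treated for 6 h with 100 nM dexamethasone, a synthetic glucocorticoid. In each line, 3 arrays had dexamethasone alone and 3 had dexamethasone with 5 µM 15d-PGJ2, an electrophilic prostaglandin. Dexamethasone was present in all 4 groups, so no group shows the level of a gene without it, and whether these genes respond to the hormone in these cells was not measured. Each receptor form is represented by 1 line, so receptor and line cannot be told apart.

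The glucocorticoid receptor is a nuclear receptor that binds DNA after taking up its ligand and raises or lowers transcription of nearby genes. SUMOylation is the attachment of the small protein SUMO to lysines, and on this receptor it is known to alter the activity at some target genes and not at others. The 8 genes act in different places. IRS2 is an adaptor that passes signals from the insulin receptor to PI3 kinase. ARRDC2 and TXNIP are alpha-arrestins, adaptors that direct membrane proteins to ubiquitin ligases, and TXNIP also binds thioredoxin and limits glucose uptake. SCNN1A is the alpha subunit of the epithelial sodium channel. GLUL is glutamine synthetase, which makes glutamine from glutamate and ammonia, and LPIN1 is a phosphatidate phosphatase of glycerolipid synthesis. CDKN1C (p57) inhibits cyclin-dependent kinases, and PHACTR3 binds protein phosphatase 1 and actin, so the label of metabolism and transport does not describe these last members.

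The promoters of 5 of the 8 genes were found in a RefSeq-derived table (GRCh38.p14), 10 start sites in all, each with 250 bases before and 50 after the start. SCNN1A, PHACTR3 and CDKN1C had no entry. The hexamer AGAACA bound by one receptor monomer, searched on both strands, was in 0 of these 10 promoters and in 14.8% of the 35116 promoters of the table. The full palindrome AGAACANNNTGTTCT, which contains that hexamer on each strand, was in 0 of the 10 and in 0.00285% of all. These windows are short and say nothing about binding elsewhere. The promoters of the insulin adaptor and of the 2 alpha-arrestins are shown because they carry other motifs, chosen after the sequences were seen. Capitals in IRS2 (chr13:109786534-109786833, minus strand) mark 2 CCAAT boxes, one read on each strand. Capitals in ARRDC2 (its second start site, chr19:18007920-18008219, plus strand) mark a CCAAT box on the opposite strand and a TATAAA box 30 bases before the start. Capitals in TXNIP (chr1:145996530-145996829, minus strand) mark in order a CCAAT box on the opposite strand, a forkhead site GTAAACA, a second CCAAT box and the paired E-boxes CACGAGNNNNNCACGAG. CCAAT was in 34.6% of all promoters, TATAAA in 11.5%, GTAAACA in 3.42% and the paired E-boxes in 0.0057%, that is in 2 promoters.
IRS2: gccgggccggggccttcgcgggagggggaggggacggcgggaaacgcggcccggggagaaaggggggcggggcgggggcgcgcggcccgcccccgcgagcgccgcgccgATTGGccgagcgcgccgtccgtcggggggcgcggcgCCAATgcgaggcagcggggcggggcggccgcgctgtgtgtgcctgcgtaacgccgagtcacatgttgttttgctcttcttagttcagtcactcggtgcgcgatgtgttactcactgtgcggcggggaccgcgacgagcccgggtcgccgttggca
ARRDC2: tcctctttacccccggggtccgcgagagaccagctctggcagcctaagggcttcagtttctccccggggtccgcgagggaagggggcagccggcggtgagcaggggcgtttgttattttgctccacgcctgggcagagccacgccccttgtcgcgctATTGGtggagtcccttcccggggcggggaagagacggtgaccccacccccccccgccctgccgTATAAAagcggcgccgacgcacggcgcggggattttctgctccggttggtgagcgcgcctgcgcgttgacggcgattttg
TXNIP: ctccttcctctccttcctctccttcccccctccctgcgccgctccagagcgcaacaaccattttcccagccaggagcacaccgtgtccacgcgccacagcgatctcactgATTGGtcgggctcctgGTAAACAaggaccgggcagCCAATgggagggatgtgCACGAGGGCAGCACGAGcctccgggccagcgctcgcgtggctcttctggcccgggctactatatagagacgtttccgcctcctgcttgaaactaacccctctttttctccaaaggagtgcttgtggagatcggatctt
None of these motifs overlapped another in the 3 windows. The other ARRDC2 start site and the first TXNIP start site held none of the 6 motifs searched, and one of the 2 GLUL start sites held 2 CCAAT boxes.

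The arrays were not of equal quality. The number of detected probes was 15223, 14207 and 17032 on the GR3KR arrays with 15d-PGJ2, and it lay between 17959 and 19950 on the remaining 9. Median signals before normalization were 58.3 to 64.0 on the GR3KR arrays with 15d-PGJ2 and 70.7 to 72.2 on those without. In wtGR cells they were 69.3 to 76.7 with 15d-PGJ2 and 76.9 to 89.6 without. Signals and signal ratios before normalization, given below, include these differences between arrays. Arrays of a group correlated at 0.869 to 0.994 over kept probes. Of the 7 markers listed for HEK293 cells, 6 had a kept probe and PAX2 was not detected. Of the markers of other cells, COL1A1 was the 1 of 6 kept for fibroblasts, CD14 the 1 of 5 for leukocytes, and 0 of 6 were kept for kidney tubule. The summed linear level of the HEK293 markers ran from 11216 to 22019 over the 12 arrays. In the tests over 20909 kept probes, the share of changed probes that were higher moved with the scaling of the arrays. It was 33.3% for the lines under dexamethasone, against 7.29% with arrays scaled to a common median, and 60.8% for 15d-PGJ2 in GR3KR cells, against 46.9% with cyclic loess and 16.6% with median scaling. For 15d-PGJ2 in wtGR cells it was 75% against 29.2% with median scaling, for the difference between both effects 61.8% against 42.2% with cyclic loess, and for the lines under both drugs 58.4% against 47.5% and 30.3%. The median log2 difference of all kept probes with quantile normalization and with median scaling was 0.00 and -0.25 for the lines under dexamethasone, and 0.18 and -0.17 for 15d-PGJ2 in GR3KR cells. The labels call the arrays triplicates and do not state separate cultures, so p-values speak only for the spread among these arrays, which may be technical.

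Under dexamethasone alone, a probe of PHACTR3, a probe of ARRDC2 and the CDKN1C probe were lower in GR3KR than in wtGR cells. Of the 11 kept member probes, 3 were lower and 0 higher at an adjusted p under 0.05 (limma, Benjamini-Hochberg over all 20909 kept probes), where 4.62% of all kept probes passed, 1.54% higher and 3.08% lower. The median log2 difference of the 11 probes was -0.20 against 0.00 over all kept probes. The members were chosen with earlier results of these data known, and some of the 11 probes share a gene. These counts and medians therefore cannot set the members apart from other probes. The 3 arrays of each line did not overlap for 4 of the 11, all lower, where 13.5% of all kept probes were higher and 17.8% lower without overlap. The fourth of these, IRS2, did not pass the test. Nor did the second kept probes of PHACTR3 (-0.47, adjusted p 0.82) and ARRDC2 (-0.04, adjusted p 0.968), which overlapped between the lines.

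In wtGR cells 0 of the 11 member probes passed for 15d-PGJ2. Only 16 of all kept probes passed there (0.0765%, with 0.0574% higher and 0.0191% lower). Unadjusted, 1592 were at p below 0.05. With array weights of limma 5 of the 11 member probes passed, where 32.4% of all kept probes did. Treated and untreated arrays did not overlap for 4 member probes, all lower, where 6.66% of all kept probes were higher and 11.9% lower without overlap. In GR3KR cells 15d-PGJ2 raised 2 member probes, one of ARRDC2 and the one of SCNN1A, and lowered 1, a probe of PHACTR3. There 44.8% of all kept probes passed (27.2% higher, 17.6% lower). The 11 member probes, some of them of the same gene, are too few to set their share apart from this. Without overlap were 6 member probes higher and 1 lower, where 33.7% and 20.6% of all kept probes were. The difference between both effects passed for 3 of 11 probes, all higher in GR3KR, against 23.7% of all kept probes (14.6% higher, 9.03% lower). With both drugs present, GR3KR cells had 3 member probes higher and 2 lower than wtGR cells, against 50.7% of all kept probes (29.6% higher, 21.1% lower). The same 3 and 2 did not overlap, where 32.2% and 22.8% of all kept probes did not. The comparisons share arrays. The GR3KR dexamethasone arrays, for example, enter the comparison of the lines under dexamethasone and also the 15d-PGJ2 effect in GR3KR cells, with opposite sign.

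**Figure D1:**
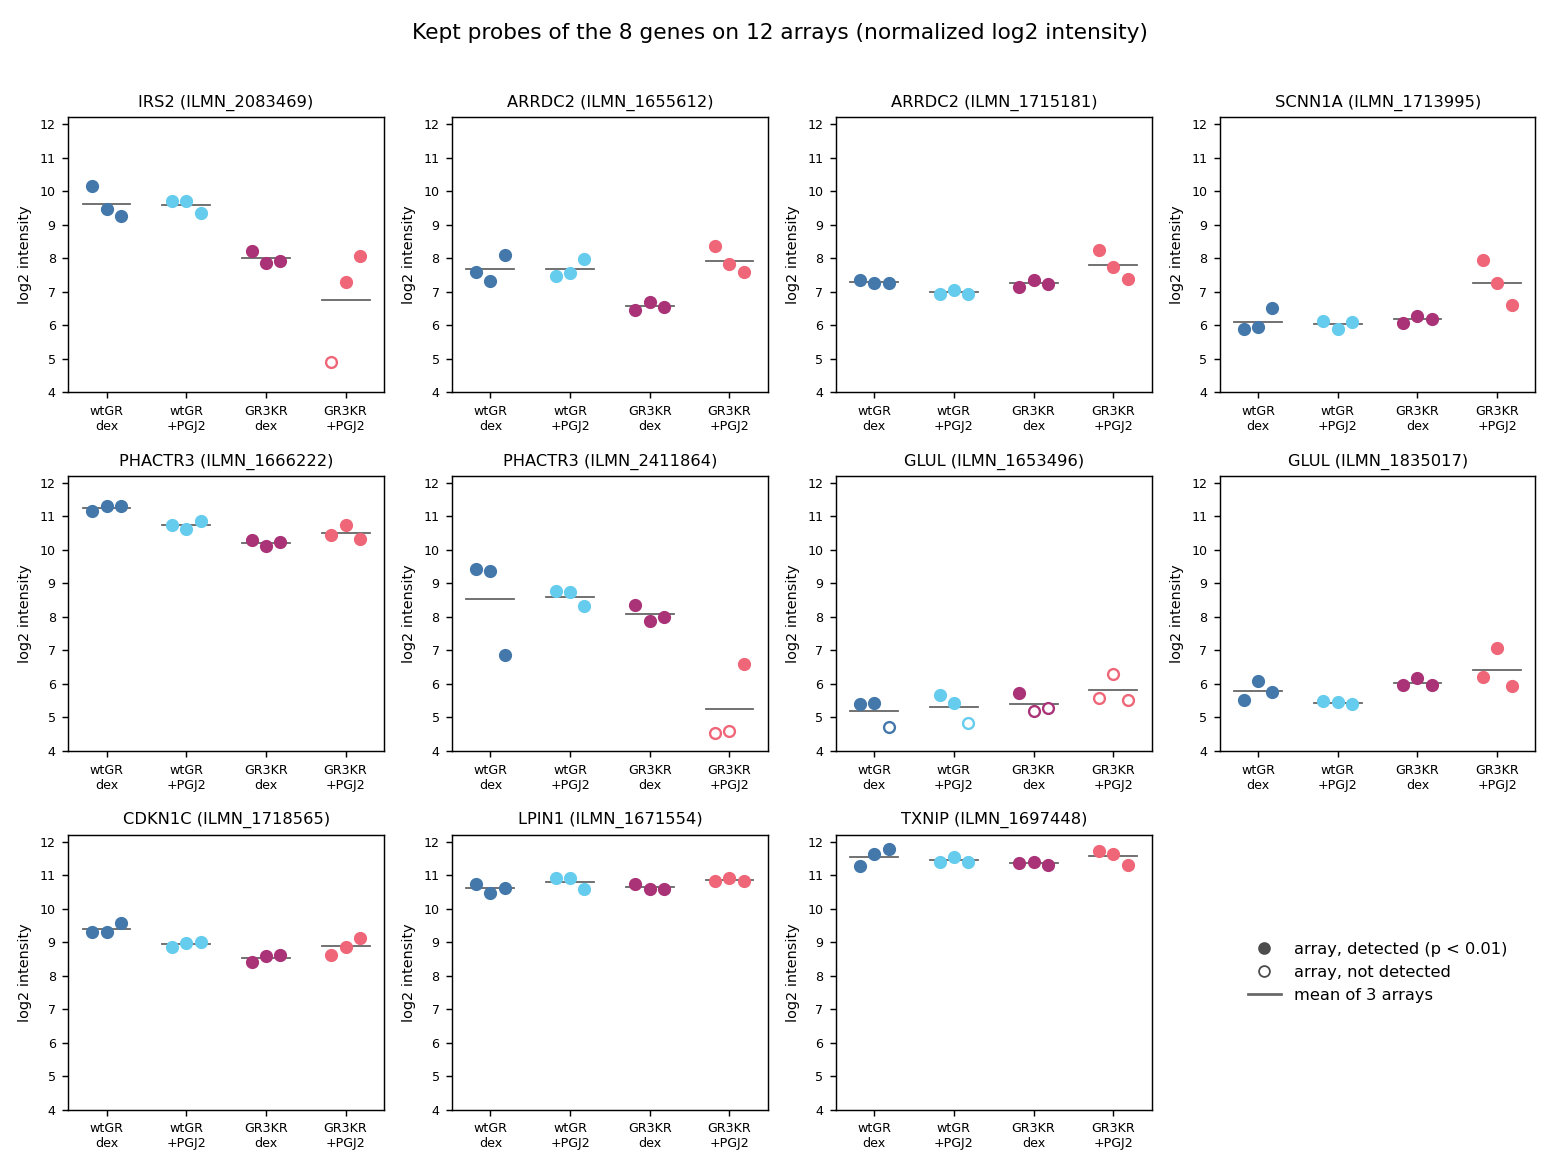
Normalized log2 intensity (vertical axis) of the 11 kept probes on each of the 12 arrays, by group (horizontal axis), with filled points for arrays with detection, open points for arrays without and a bar for the mean of 3 arrays. PHACTR3 (ILMN_1666222), CDKN1C, IRS2 and one ARRDC2 probe (ILMN_1655612) lie lower in GR3KR than in wtGR cells under dexamethasone, and the GR3KR arrays with 15d-PGJ2 scatter most for IRS2, SCNN1A and PHACTR3 (ILMN_2411864).

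IRS2, the insulin receptor adaptor, had bead signals of 1795, 957 and 835 on the wtGR dexamethasone arrays and of 344, 279 and 296 on those of GR3KR cells. Normalized log2 values were 10.17, 9.47 and 9.25 in wtGR and 8.22, 7.86 and 7.91 in GR3KR cells. All 3 GR3KR arrays lay below all 3 wtGR arrays. The log2 difference was -1.63 ± 0.63 (standard error, as for all differences below, n = 3 and 3), 3.10-fold lower, and the adjusted p of limma was 0.195. The shared estimate of spread takes in the GR3KR 15d-PGJ2 arrays, where IRS2 scattered most. Without array 1 of that group the same difference had an adjusted p of 0.0096, and without all 3 of them 0.00545 (the latter chosen after seeing the data). The difference passed in 5 of 23 settings, with adjusted p-values up to 0.42 and values between -1.92 and -1.18. It missed the threshold with cyclic loess (adjusted p 0.155), median scaling (0.0547) and the deposited log2 values (0.0557).

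With 15d-PGJ2 the IRS2 log2 values were 9.70, 9.70 and 9.34 in wtGR cells and 4.89, 7.30 and 8.06 in GR3KR cells, where array 1 was without detection. The wtGR values lay within the range of wtGR under dexamethasone, and the GR3KR arrays all lay below them. The difference between the lines under both drugs was -2.83 ± 0.63, with an adjusted p of 0.0052. With the undetected array raised to its detection limit, IRS2 was at least 5.32-fold lower in GR3KR cells. IRS2 was lower with an adjusted p under 0.05 in all 22 alternative settings run, between -3.49 and -1.52. The value nearest to 0 came without GR3KR 15d-PGJ2 arrays 1 and 2, a fit that leaves a single array in that group. In bulk RNA, fewer cells with a transcript and less transcript per cell cannot be told apart.

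The 15d-PGJ2 effect on IRS2 was -0.05 ± 0.63 in wtGR cells (95% interval -1.44 to 1.34) and -1.25 ± 0.63 in GR3KR cells (adjusted p 0.123). In GR3KR cells it passed without array 3 of the 15d-PGJ2 group (-1.90, adjusted p 0.0151) and was 0.06 without arrays 1 and 2. The order of the groups by mean was wtGR with dexamethasone (9.63 ± 0.48, standard deviation of 3 arrays), wtGR with both drugs (9.58 ± 0.21), GR3KR with dexamethasone (8.0 ± 0.19) and GR3KR with both (6.75 ± 1.65). The first pair and the last pair each overlapped within a line.

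The insulin receptor list holds 16 genes, 14 of them measured, a gene being represented by whichever of its kept probes was brightest on average. Under dexamethasone 1 was higher and 0 lower in GR3KR cells, against 5.88% of the 12337 genes (1.86% higher, 4.03% lower). The one was IRS1, the other widely used insulin receptor substrate, at 0.83 ± 0.19 (adjusted p 0.0314). With both drugs, 1 was higher and 3 lower, against 50% of all genes (31.9% higher, 18.1% lower). IRS1 was higher by 0.62 ± 0.19 (adjusted p 0.0196), whereas IRS2 and the phosphatase PTPN1 (-1.29 ± 0.16) were lower. The receptor IGF1R is the remaining one of the 3 (adjusted p 0.0363). It was detected on 1 of the 3 GR3KR arrays, and its wtGR mean of 5.93 lay under the mean of 6.11 that the GR3KR arrays reach at their detection limit, so no fold is given. 15d-PGJ2 in GR3KR cells raised GRB10 (0.44 ± 0.14), an adaptor that restrains insulin signalling, and lowered PTPN1, FOXO4 and IGF1R (at least 1.09-fold, detected on 1 of the 3 treated arrays), 1 higher and 3 lower of 14 against 43.4% of all genes (29.2% higher, 14.1% lower). In wtGR cells 0 of 14 passed, against 0.113% (0.0811% higher, 0.0324% lower). The same shares over all genes stand behind the counts of every list below. List genes were tested with the reported processing only. Where their detection was lost on GR3KR arrays with 15d-PGJ2, the part of array quality in the change was not tested.

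ARRDC2 was measured by 2 kept probes annotated to the same transcript, and they did not move alike. Probe ILMN_1655612 had signals of 381, 258 and 385 in wtGR and of 139, 145 and 141 in GR3KR cells under dexamethasone, and log2 values of 7.58, 7.31 and 8.11 against 6.46, 6.70 and 6.54. The groups did not overlap, and the difference was -1.10 ± 0.26, 2.15-fold lower in GR3KR (adjusted p 0.0369). Probe ILMN_1715181 had log2 values of 7.34, 7.25 and 7.25 against 7.15, 7.36 and 7.23, which overlapped, with a difference of -0.04 ± 0.21 (95% interval -0.49 to 0.42). The call of the first probe was lost in 10 of 24 settings. Among them were the deposited log2 values (-0.59, adjusted p 0.0524), and it was lost without any of wtGR dexamethasone arrays 1 and 3, wtGR 15d-PGJ2 arrays 1 and 2, the 3 GR3KR dexamethasone arrays or GR3KR 15d-PGJ2 array 2, at adjusted p-values of 0.0521 to 0.137.

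With 15d-PGJ2 in GR3KR cells, ARRDC2 probe ILMN_1655612 had log2 values of 8.35, 7.82 and 7.59, all above the 3 arrays without it. The difference was 1.35 ± 0.26, 2.56-fold higher (adjusted p 0.00697). Before normalization the mean signal ratio was 1.21, with signals of 220.0, 117 and 178 against 139, 145 and 141, and array 2 lay below the untreated arrays. The rise was not past the threshold with median scaling (0.64, adjusted p 0.121) and without arrays 1 and 2 of the treated group (1.02, adjusted p 0.185, and 0.0543 with wtGR dexamethasone array 3 also left out). Probe ILMN_1715181 had log2 values of 8.25, 7.74 and 7.37 with 15d-PGJ2, also above the untreated arrays, and a difference of 0.54 ± 0.21 (adjusted p 0.0525), which turned to -0.20 with median scaling. The ratio of its mean signals was 0.785.

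In wtGR cells the first ARRDC2 probe had log2 values of 7.47, 7.57 and 7.97 with 15d-PGJ2, within the range of those without, and an effect of 0.00 ± 0.26 (95% interval -0.56 to 0.57). The second had 6.94, 7.06 and 6.92, all below those without, and an effect of -0.30 ± 0.21 (adjusted p 0.781). The effect of 15d-PGJ2 on the first probe was larger in GR3KR than in wtGR cells by 1.35 ± 0.36 (adjusted p 0.031), and on the second by 0.85 ± 0.29 (adjusted p 0.056). The first difference passed in 11 of 23 settings and not without wtGR dexamethasone array 3 (1.13, adjusted p 0.0684) or without GR3KR 15d-PGJ2 arrays 1 and 2 (1.02, adjusted p 0.185). It was also lost without any one of wtGR 15d-PGJ2 arrays 1 and 2, GR3KR dexamethasone arrays 1 and 3 and GR3KR 15d-PGJ2 arrays 1 and 2 (adjusted p 0.0597 to 0.0801). With both drugs the second probe was higher in GR3KR cells by 0.81 ± 0.21 (adjusted p 0.00918, 1.75-fold), and the first by 0.25 ± 0.26 (adjusted p 0.426). Before normalization the order was the other way for both, with GR3KR over wtGR ratios of mean signal of 0.874 and 0.659. The difference of the second was 0.03 with median scaling (adjusted p 0.927), 0.41 with cyclic loess (adjusted p 0.114) and 0.40 without GR3KR 15d-PGJ2 arrays 1 and 2 (adjusted p 0.127). The remaining ARRDC2 probe, ILMN_1710229, annotated to another transcript, was detected on 0 of 12 arrays.

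**Figure D2:**
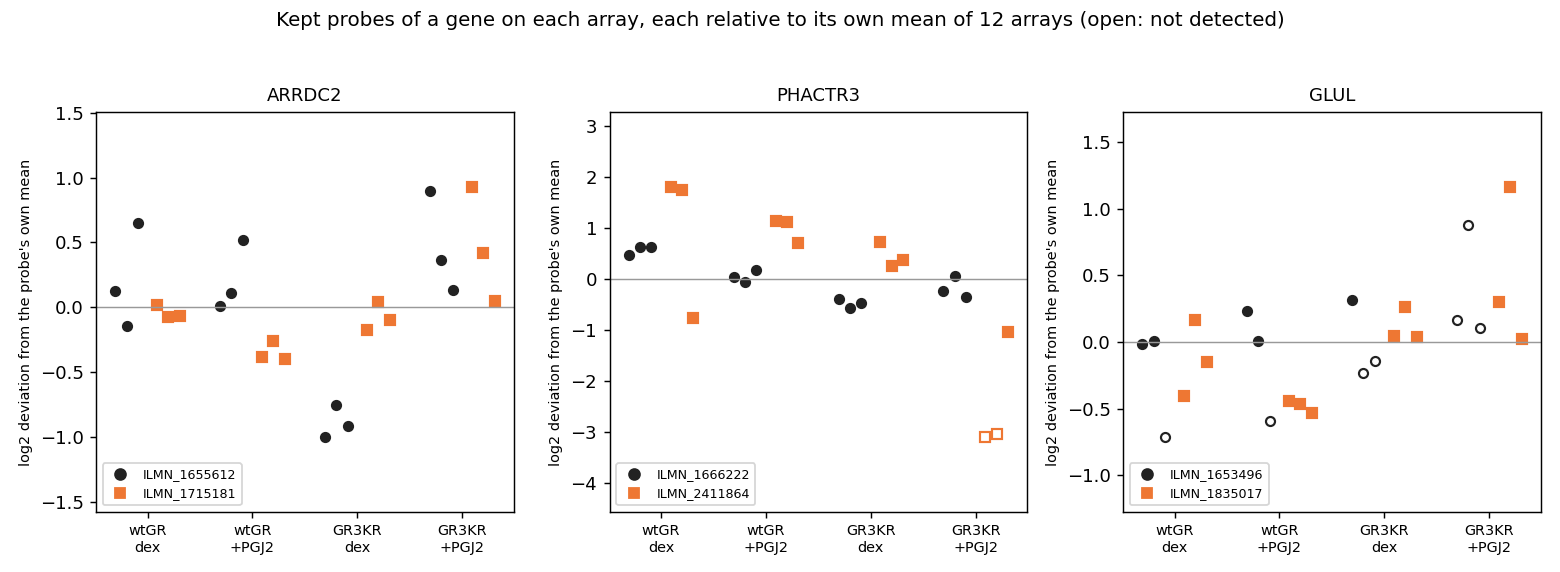
Log2 deviation of each kept probe of ARRDC2, PHACTR3 and GLUL from its own mean over the 12 arrays (vertical axis), by group (horizontal axis), with circles and squares for the 2 probes of a gene and open symbols for arrays without detection. On the GR3KR dexamethasone arrays ILMN_1655612 of ARRDC2 lies at -1.0 to -0.76 and ILMN_1715181 at -0.18 to 0.04, and for PHACTR3 wtGR dexamethasone array 3 lies at -0.76 by ILMN_2411864 and at 0.64 by ILMN_1666222.

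TXNIP, the thioredoxin-binding alpha-arrestin, had log2 values of 11.27, 11.62 and 11.78 in wtGR and 11.37, 11.41 and 11.29 in GR3KR cells under dexamethasone. With 15d-PGJ2 they were 11.40, 11.53 and 11.39 in wtGR and 11.74, 11.65 and 11.31 in GR3KR cells. All 4 groups overlapped, and none of the 5 comparisons passed. The differences were -0.12 ± 0.18 and 0.21 ± 0.18 for 15d-PGJ2 in wtGR and GR3KR cells, and -0.20 ± 0.18 between the lines under dexamethasone (95% interval -0.59 to 0.19). With median scaling the last value was -0.60. With array weights of limma it was -0.29 and passed (adjusted p 0.0194), as did the 15d-PGJ2 effect on TXNIP in GR3KR cells (0.32, adjusted p 0.0472) and the difference of effects (0.48, adjusted p 0.0188).

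Of the 6 alpha-arrestins listed, 5 were measured. Under dexamethasone 1 was lower in GR3KR cells and 0 higher, ARRDC2 itself. With 15d-PGJ2 in GR3KR cells 1 was higher (ARRDC2) and 1 lower (ARRDC1, at least 1.41-fold, adjusted p 0.00507, detected on 0 of the 3 treated arrays and on all 3 untreated ones). With both drugs 2 of 5, ARRDC4 and ARRDC1, passed as lower in GR3KR cells. The wtGR mean of ARRDC1, 5.81, lay under the detection limit of the GR3KR arrays, so no fold is given. The thioredoxin and glucose-sensing list had 10 of 11 genes measured, and 0 passed between the lines under dexamethasone. In GR3KR cells 15d-PGJ2 raised 2, the mitochondrial thioredoxin TXN2 (1.08 ± 0.31) and the carbohydrate-response factor MLXIPL (1.12 ± 0.35). It lowered 2, hexokinase HK2 (at least 4.53-fold) and MLX, the partner of MLXIPL (at least 4.21-fold), each detected on 1 of the 3 treated arrays. In wtGR cells 0 genes of either list passed for 15d-PGJ2.

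SCNN1A, the sodium channel subunit, had log2 values of 5.89, 5.93 and 6.5 in wtGR and 6.07, 6.28 and 6.19 in GR3KR cells under dexamethasone. These overlapped, and the difference was 0.07 ± 0.30 (95% interval -0.59 to 0.73). With 15d-PGJ2 the values were 6.11, 5.89 and 6.11 in wtGR and 7.95, 7.26 and 6.60 in GR3KR cells. The 3 GR3KR arrays with 15d-PGJ2 lay above the other 9. The 15d-PGJ2 effect was -0.07 ± 0.30 in wtGR cells and 1.09 ± 0.30 in GR3KR cells, 2.13-fold higher (adjusted p 0.0171). The difference between both effects was 1.16 ± 0.42 (adjusted p 0.0653). With both drugs SCNN1A was higher in GR3KR than in wtGR cells by 1.23 ± 0.30, 2.35-fold (adjusted p 0.00763).

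Before normalization the SCNN1A signals with 15d-PGJ2 in GR3KR cells were 164, 89.9 and 105, and 115, 119 and 118 without, a ratio of means of 1.02. The rise was not present in the means of the signals before normalization, where the treated arrays were also dimmer as a whole. Their median signals were 63.0, 58.3 and 64.0, against 72.2, 70.7 and 71.0 on the untreated arrays. On the log2 scale it was 0.31 with median scaling (adjusted p 0.428), 0.74 with cyclic loess (adjusted p 0.0612) and 0.42 without arrays 1 and 2 of the treated group (adjusted p 0.354). It also missed the threshold without GR3KR dexamethasone array 1 (1.04, adjusted p 0.0592), treated array 1 (0.75, adjusted p 0.0517) or treated array 2 (1.10, adjusted p 0.0526). With both drugs the difference between the lines missed the threshold in 2 of 23 settings, median scaling (0.37, adjusted p 0.298) and the fit without treated GR3KR arrays 1 and 2 (0.56, adjusted p 0.153).

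The sodium channel list had 11 of 13 genes measured. Under dexamethasone 0 were higher in GR3KR cells and 1 was lower, the channel-activating protease PRSS8 at -1.01 ± 0.24 (adjusted p 0.037). With 15d-PGJ2 in GR3KR cells 2 were higher, SCNN1A and PRSS8 (0.79 ± 0.24), and 1 lower, the kinase WNK1 (-0.70 ± 0.21). With both drugs 2 were higher and 5 lower in GR3KR cells, 7 of 11 against 50% of all genes (31.9% higher, 18.1% lower). The gamma subunit SCNN1G was at least 1.87-fold lower there (adjusted p 0.000361), detected on 0 of the 3 GR3KR arrays and on all 3 wtGR arrays. SCNN1B, the beta subunit, was also detected on 0 and 3 and counts among the 5 by the sign of its fitted difference and its adjusted p (0.0311). Its wtGR mean of 5.64 lay under the detection limit of the GR3KR arrays, a mean of 6.09. The direction of its difference is therefore not settled, and no size is given.

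CDKN1C, the kinase inhibitor p57, had signals of 1049, 861 and 1039 in wtGR and 381, 435 and 447 in GR3KR cells under dexamethasone. The log2 values were 9.30, 9.29 and 9.58 against 8.40, 8.59 and 8.62, with no overlap. The difference was -0.86 ± 0.17, 1.81-fold lower in GR3KR cells (adjusted p 0.019). It passed in 19 of 24 settings, between -1.18 and -0.63. It missed the threshold without wtGR dexamethasone array 2 or 3 (adjusted p 0.0531 and 0.0669) or any of the 3 GR3KR dexamethasone arrays (adjusted p 0.0946, 0.0684 and 0.0706).

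With 15d-PGJ2 CDKN1C had log2 values of 8.87, 8.98 and 9.01 in wtGR and 8.63, 8.87 and 9.14 in GR3KR cells. With quantile normalization the wtGR arrays lay below and the GR3KR arrays above those of the same line without it, and the 2 groups with 15d-PGJ2 overlapped. The effects were -0.44 ± 0.17 (adjusted p 0.585) and 0.35 ± 0.17 (adjusted p 0.114), and neither passed. The value in GR3KR cells was 0.00 with cyclic loess and -0.20 with median scaling, and the mean signal before normalization went from 421 to 330, a ratio of 0.783, so its sign turned with the scaling. In wtGR cells the value stayed negative with both, at -0.37 and -0.81. The difference between them was 0.79 ± 0.24 (adjusted p 0.0417), with 10 of 23 settings past the threshold. It was 0.38 with cyclic loess (adjusted p 0.346), 0.69 without wtGR dexamethasone array 3 (adjusted p 0.0966) and 1.05 without GR3KR 15d-PGJ2 arrays 1 and 2 (adjusted p 0.107). Leaving out any one of wtGR dexamethasone array 2, the 3 wtGR 15d-PGJ2 arrays, the 3 GR3KR dexamethasone arrays or GR3KR 15d-PGJ2 array 2 also ended the call (adjusted p 0.054 to 0.101). With both drugs the lines differed by -0.07 ± 0.17 (95% interval -0.45 to 0.31). The order of means was wtGR with dexamethasone (9.39 ± 0.16), wtGR with both (8.95 ± 0.07), GR3KR with both (8.88 ± 0.25) and GR3KR with dexamethasone (8.53 ± 0.12).

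The list of cyclin-dependent kinases, cyclins and their inhibitors had 13 of 14 genes measured. Under dexamethasone 1 was higher and 3 lower in GR3KR cells. The higher one was CDKN1A (p21), a relative of CDKN1C, at 0.94 ± 0.16 (adjusted p 0.00913). The lower ones were CDKN1C and the INK4 inhibitors CDKN2B (-0.96 ± 0.24) and CDKN2D (-1.09 ± 0.27). With 15d-PGJ2 in GR3KR cells 4 were higher and 1 lower, 5 of 13 against 43.4% of all genes (29.2% higher, 14.1% lower), a share near the background. CDKN2D (1.46 ± 0.27), CDKN1B or p27 (1.26 ± 0.28) and CDKN2B (0.92 ± 0.24) were among those higher, and the kinase CDK2 (-2.38 ± 0.51) was lower. In wtGR cells 0 of 13 passed.

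PHACTR3, the phosphatase and actin regulator, was lower in GR3KR than in wtGR cells under dexamethasone by its brighter kept probe. This probe, ILMN_1666222, had signals of 3441, 3149 and 3411 in wtGR and 1189.7, 1167 and 1238 in GR3KR cells under dexamethasone. The log2 values were 11.15, 11.31 and 11.32 against 10.29, 10.12 and 10.22, with no overlap. The difference was -1.05 ± 0.16, 2.07-fold lower in GR3KR cells (adjusted p 0.00469), and it passed in all 24 settings, between -1.38 and -0.97.

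With 15d-PGJ2 this PHACTR3 probe had log2 values of 10.73, 10.63 and 10.87 in wtGR and 10.45, 10.74 and 10.33 in GR3KR cells. As for CDKN1C, the wtGR arrays lay below and the GR3KR arrays above those of the same line without it. The effect in wtGR cells was -0.52 ± 0.16 (unadjusted p 0.00753, adjusted p 0.465) and in GR3KR cells 0.29 ± 0.16 (adjusted p 0.143). The latter was 0.14 with cyclic loess and 0.15 with median scaling, while the ratio of mean signals was 0.921. The difference between the effects was 0.81 ± 0.22 (adjusted p 0.0326). It passed in 10 of 23 settings, and not without wtGR dexamethasone array 3 (0.78, adjusted p 0.0724) or without GR3KR 15d-PGJ2 arrays 1 and 2 (0.64, adjusted p 0.155). Nor did it pass without any one of wtGR dexamethasone array 2, wtGR 15d-PGJ2 arrays 1 and 2, the 3 GR3KR dexamethasone arrays or GR3KR 15d-PGJ2 arrays 1 and 2 (adjusted p 0.0522 to 0.0866). With both drugs the lines differed by -0.24 ± 0.16 (adjusted p 0.225) and overlapped.

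The other kept PHACTR3 probe, ILMN_2411864, is annotated to the same transcript. It had log2 values of 9.43, 9.36 and 6.85 in wtGR and 8.36, 7.88 and 7.99 in GR3KR cells under dexamethasone. Array 3 of the wtGR group stood 2 log2 units or more below its fellows on this probe and not on the first one. The difference between the lines was -0.47 ± 0.69 (adjusted p 0.82). It was -1.32 without that array, with an adjusted p of 0.00847 when GR3KR 15d-PGJ2 arrays 1 and 2 were left out too, a setting chosen after seeing the data.

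With 15d-PGJ2 probe ILMN_2411864 had log2 values of 8.76, 8.74 and 8.33 in wtGR and 4.53, 4.60 and 6.59 in GR3KR cells, with detection on 1 of the 3 GR3KR arrays. In GR3KR cells 15d-PGJ2 lowered it by at least 3.21-fold (fitted difference -2.84 ± 0.69, adjusted p 0.0117), and with both drugs it was at least 4.65-fold lower in GR3KR than in wtGR cells (fitted difference -3.37 ± 0.69, adjusted p 0.00361). The first probe did not move this way on the same arrays, and the 2 arrays without detection are those with the fewest detected probes. Without these 2 arrays, which leaves a single treated GR3KR array, the differences were -1.49 and -2.02. A p-value there would take its spread from the other groups, so none is given. In wtGR cells the 15d-PGJ2 effect on ILMN_2411864 was 0.06 ± 0.69 (adjusted p 0.99). The difference between the effects was -2.90 ± 0.97 (adjusted p 0.0521), opposite in sign to that of the first probe. It passed without wtGR dexamethasone array 1 (-3.34, adjusted p 0.0362) or GR3KR 15d-PGJ2 array 3 (-3.57, adjusted p 0.00737). The remaining probe, ILMN_1799424, was detected on 0 of 12 arrays.

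The PHACTR and protein phosphatase 1 list had 7 of 7 genes measured. Under dexamethasone 1 was lower in GR3KR cells, PHACTR3 itself, and 0 were higher. In GR3KR cells 15d-PGJ2 lowered 2 and raised 0. PHACTR2 was at least 2.18-fold lower (adjusted p 0.0239) and the catalytic subunit PPP1CA at least 16.7-fold (adjusted p 0.00558), each detected on 1 of the 3 treated arrays. These bounds take a lost detection as a low level. Treated arrays 1 and 2 had only 15223 and 14207 detected probes, and the part of array quality was not tested.

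**Figure D3:**
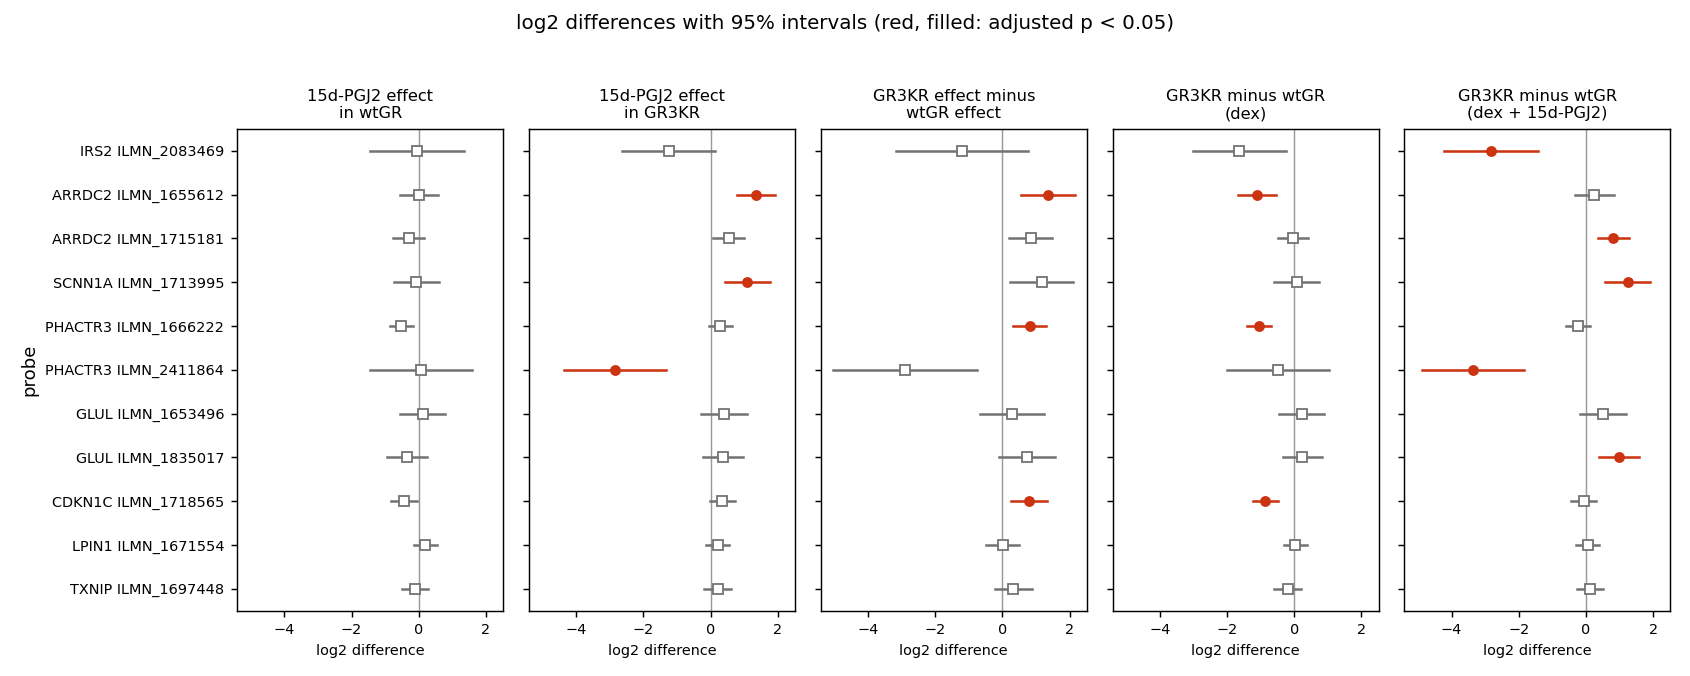
log2 differences of the 11 kept probes (rows) in the 5 comparisons (panels), with 95% intervals of the fit and filled red points where the adjusted p was under 0.05. Under dexamethasone 3 probes pass as lower in GR3KR cells, for 15d-PGJ2 in wtGR cells 0 pass, and LPIN1 and TXNIP pass in no panel.

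GLUL, glutamine synthetase, lay near the detection limit. Of its 4 probes, ILMN_1835017 was detected on 12 arrays, ILMN_1653496 on 5, ILMN_1765208 on 2 and ILMN_2269977 on 0, and the first pair was kept. Probe ILMN_1835017 had log2 values of 5.52, 6.09 and 5.77 in wtGR and 5.96, 6.18 and 5.96 in GR3KR cells under dexamethasone, which overlapped. With 15d-PGJ2 they were 5.48, 5.45 and 5.39 in wtGR, all below those without, and 6.22, 7.08 and 5.95 in GR3KR cells.

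The 15d-PGJ2 effect on this GLUL probe was -0.35 ± 0.27 in wtGR cells (adjusted p 0.8) and 0.38 ± 0.27 in GR3KR cells (adjusted p 0.254), where it turned to -0.37 with median scaling. With array weights both effects passed (-0.57 and 0.88, adjusted p 0.0111 and 0.00218). The difference between them was 0.73 ± 0.38 (adjusted p 0.155). It passed with array weights (1.46, adjusted p 0.000382) and without GR3KR 15d-PGJ2 array 3 (0.96, adjusted p 0.037). With both drugs the probe was higher in GR3KR cells by 0.97 ± 0.27, 1.97-fold (adjusted p 0.0129). This held in 20 of 23 settings, and not with median scaling (0.17, adjusted p 0.489) or without GR3KR 15d-PGJ2 arrays 1 and 2 (0.51, adjusted p 0.151, and 0.143 with wtGR dexamethasone array 3 also left out). Its mean signals there were 82.0 in GR3KR and 91.0 in wtGR cells, a ratio of 0.901, so before normalization the order was the other way. Probe ILMN_1653496 was without detection on all 3 GR3KR arrays with 15d-PGJ2 and passed in 0 of the 5 comparisons with the reported processing. With array weights it passed for 15d-PGJ2 in GR3KR cells (0.85, adjusted p 0.00941) and for the difference of effects (0.73, adjusted p 0.0455). It then also passed for the lines under both drugs (0.65, adjusted p 0.0365). Of the glutamine list, 8 of 11 genes were measured. Under dexamethasone 2 were lower in GR3KR cells, the glutamine transporters SLC38A1 (-0.88 ± 0.17) and SLC1A5 (-0.80 ± 0.20), and 0 higher. The prostaglandin raised 3 in GR3KR cells, SLC1A5 (1.06 ± 0.20), SLC38A2 (0.97 ± 0.24) and SLC38A1 (0.47 ± 0.17), and lowered 0.

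LPIN1, the phosphatidate phosphatase, had log2 values of 10.74, 10.47 and 10.61 in wtGR and 10.74, 10.59 and 10.60 in GR3KR cells under dexamethasone. With 15d-PGJ2 they were 10.93, 10.92 and 10.58 in wtGR and 10.82, 10.92 and 10.83 in GR3KR cells. The 12 values spanned 10.47 to 10.93, and the groups compared overlapped except that the GR3KR arrays with 15d-PGJ2 all lay above those without. The effects of 15d-PGJ2 were 0.20 ± 0.16 (95% interval -0.14 to 0.54) and 0.21 ± 0.16 (-0.13 to 0.55), and they differed by 0.01 ± 0.22 (-0.47 to 0.50). The lines differed by 0.04 ± 0.16 under dexamethasone (-0.31 to 0.38) and by 0.05 ± 0.16 with both drugs. None passed, except that with array weights the effect in wtGR cells was 0.40 (adjusted p 0.00783). The lipin list had 9 of 14 symbols measured, older names included, in which 0 passed between the lines under dexamethasone. Treatment of GR3KR cells with 15d-PGJ2 lowered 2 and raised 0. LPIN2, a relative with the same enzyme activity, was at least 3.41-fold lower (adjusted p 0.0121) and the phosphatase PLPP1 at least 2.74-fold (adjusted p 0.0197), each detected on 1 of the 3 treated arrays.

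**Figure D4:**
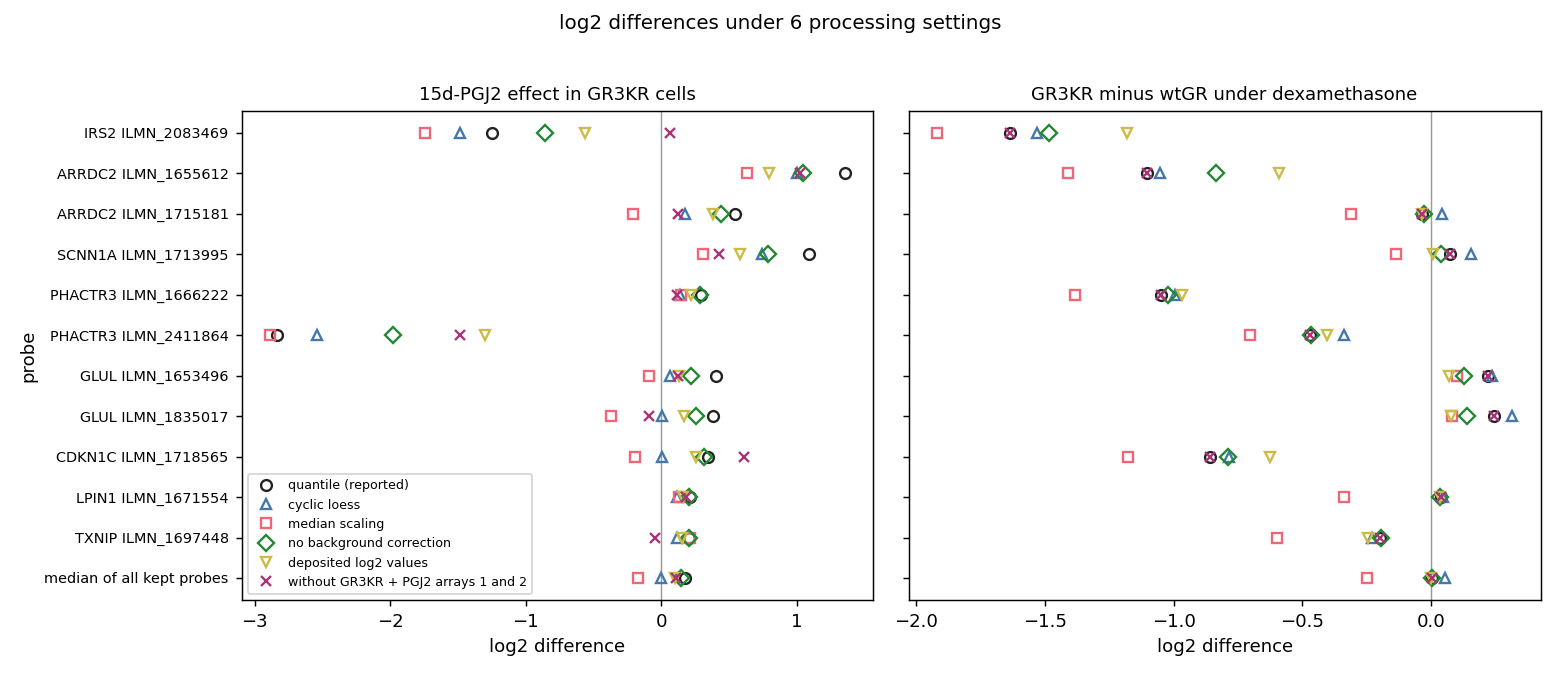
log2 differences of the 11 kept probes and the median of all kept probes (rows) for the 15d-PGJ2 effect in GR3KR cells (left) and for the lines under dexamethasone (right), under 6 ways of processing, each with its own symbol. For the lines, PHACTR3 (ILMN_1666222), CDKN1C, IRS2 and ARRDC2 (ILMN_1655612) lie below 0 under all 6. For 15d-PGJ2 the values of ARRDC2 (ILMN_1655612) and SCNN1A shrink to 0.64 and 0.31 with median scaling, and that of ARRDC2 (ILMN_1715181) turns to -0.20.

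Other known targets of the glucocorticoid receptor were read from a list of 29 genes, 28 of them measured. The list was written with earlier results of these data known. Under dexamethasone 4 were lower in GR3KR cells and 0 higher, against 4.03% of all genes lower. They were the transcription factor CEBPB (-1.28 ± 0.17), the stress-response gene GADD45B (-1.19 ± 0.23), the mTOR inhibitor DDIT4 (-0.94 ± 0.20) and the repressor SNAI2. SNAI2 was detected on 0 of the 3 GR3KR and 2 of the 3 wtGR arrays, and it was at least 1.3-fold lower in GR3KR cells (adjusted p 0.0199). The median over the 28 was -0.30, against -0.03 over all genes. In wtGR cells 0 of 28 passed for 15d-PGJ2. There 19 of the 28 values lay above 0, with a median of 0.22 against -0.07 over all genes. The difference between both effects passed for 1 higher and 2 lower, against 22.6% of all genes (16.1% higher, 6.46% lower). In GR3KR cells 6 were higher and 2 lower, against 29.2% and 14.1% of all genes. GADD45B (1.19 ± 0.23), the clock gene PER2 (1.09 ± 0.25), ZBTB16 (1.07 ± 0.26) and TFCP2L1 (1.05 ± 0.32) had the largest changes. With both drugs 7 were higher and 10 lower in GR3KR cells, against 31.9% and 18.1%, with the phosphatase DUSP1 (-1.98 ± 0.19) furthest from 0. One of the 10, SNAI2, was detected on 0 of the 3 GR3KR arrays, and its wtGR mean of 6.09 did not exceed their detection limit.

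For each gene whose brightest probe passed at least once, the 2 genes with the most similar pattern over the 12 arrays were sought among 12183 others, by the root mean square difference of deviations from each probe's own mean. For PHACTR3 these were CYP1B1 (0.14 log2 units) and PSMD6 (0.16), where PHACTR3 itself ranged over 1.2 log2 units. For CDKN1C they were OTP (0.12) and MIDEAS (0.14), at a range of 1.18. IRS2, which ranged over 5.28, was nearest to ID2 (0.37) and RRS1 (0.48). ARRDC2 was nearest to SERP2 (0.16) and DOHH (0.17), SCNN1A to GEN1 (0.11) and POPDC3 (0.11), and GLUL to ARID2 (0.16) and PPIC (0.18). All points of these patterns share the arrays and their quality.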

How the data were processed

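Expression was measured on Illumina BeadChips in 12 samples, 3 in each of 4 groups. The deposited table gives a linear intensity and a detection p-value per probe and array, with no normalization. Log2 values in a further deposited table came from lumi according to the submitters' processing notes, with steps and version not given in the sources used here. In R 4.3.3 with limma 3.58.1, intensities were background corrected from the detection p-values (offset 16), quantile normalized and log2 transformed. A probe was kept where its detection p-value fell below 0.01 in 3 or more of the 12 samples, which held for 20909. A model of 4 group means was fitted per probe (lmFit, eBayes, 8 residual and 2.66 prior degrees of freedom), and 5 comparisons were adjusted by Benjamini-Hochberg over all kept probes. The number of arrays limits the precision. Symbols came from the platform annotation, and 15 of 15 member probes matched RefSeq. Every kept member probe is given, and up to 4 changed genes a list are named by size. Where arrays of the dimmer group lacked detection, these were raised to their detection limit and the fold is a lower bound, given only where it exceeds 1. The members and lists were chosen with earlier results of these data known. Levels of different probes were compared only to choose the brightest probe of a gene. The tests were tried on simulated data with independent noise and the same spread of a probe in all groups. This does not reproduce differences in quality between arrays.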

Additional observations from a re-analysis of the deposited data

Results flagged for a closer look

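The effect of 15d-PGJ2 differed between the lines by the test of the difference itself for 3 member probes, each higher in GR3KR than in wtGR cells. The ARRDC2 probe ILMN_1655612 differed by 1.35 (adjusted p 0.031), the PHACTR3 probe ILMN_1666222 by 0.81 (adjusted p 0.0326) and CDKN1C by 0.79 (adjusted p 0.0417) on the log2 scale. The second kept probe of PHACTR3, ILMN_2411864, went the other way (-2.90, adjusted p 0.0521). That of ARRDC2, ILMN_1715181, went the same way (0.85, adjusted p 0.056), and neither passed. For PHACTR3 probe ILMN_1666222 and CDKN1C neither effect alone passed, and the value was negative in wtGR and positive in GR3KR cells. With array weights of limma both effects on this PHACTR3 probe passed (-0.60 and 0.46, adjusted p 0.00127 and 0.00614). For CDKN1C the wtGR effect passed there (-0.39, adjusted p 0.00903), and the GR3KR effect did not (0.26, adjusted p 0.088). The positive value of CDKN1C (0.35) was 0.00 with cyclic loess and -0.20 with median scaling. Each of the 3 differences that passed rests on the GR3KR 15d-PGJ2 arrays, which detected the fewest probes. The part of array quality in these differences was not tested. With 3 arrays a group, no group was screened for single outlying samples.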

How the results depend on the processing

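Over 1257 results of member probes under alternatives, 1143 kept their side of the threshold and, where they passed, their direction, 74 lost the call, 40 gained it and 0 reversed. A further count, within the first, is of 76 sign changes in differences that never passed. The numbers of changed probes were 16 for 15d-PGJ2 in wtGR cells, 9371 for it in GR3KR cells, 4948 for the difference of effects, 967 for the lines under dexamethasone and 10607 for the lines under both drugs. Below, A stands for 15d-PGJ2 in wtGR cells, B for it in GR3KR cells, C for their difference, D for the lines under dexamethasone and E for the lines under both drugs, and counts within 1.5 times of these are left out. Cyclic loess gave 35 for A, 2230 for C and 1458 for D. Median scaling gave 5279 for B, 2051 for C and 2085 for D. The deposited log2 values gave 28 for A. Without a filter on dim probes A was 34 and C 2618. Detection on all 12 arrays gave 34 for A, 6128 for B and 6729 for E, where fewer probes were tested. With 1 probe a gene A was 27, B 5608, C 3044 and E 6340, again from fewer tests. Array weights of limma, which ran from 0.111 to 5.88, gave 6771, 14174, 14223 and 7719 for A to D. The lowest weight was that of GR3KR 15d-PGJ2 array 3, while arrays 1 and 2 of that group had 0.273 and 1.47. Fits without those arrays 1 and 2 leave a single array, array 3, in the group. Their p-values and counts for B, C and E therefore take the spread from the other groups. Without GR3KR 15d-PGJ2 arrays 1 and 2 the counts of A to E were 81, 10, 1, 2487 and 2680, with 0, 0, 0, 4 and 1 of the 11 member probes. Without all 3 of these arrays A was 81 and D 2487, and without wtGR dexamethasone array 3 and GR3KR 15d-PGJ2 arrays 1 and 2 A to E were 42, 1051, 489, 2256 and 4985, both chosen after seeing the data. Leaving out 1 array at a time gave, for A to E, 5 to 74, 4116 to 12840, 61 to 10827, 311 to 2001 and 7502 to 13077, with 0 to 0, 2 to 5, 0 to 7, 1 to 4 and 5 to 5 member probes. The highest count of each over all kept probes came without GR3KR 15d-PGJ2 array 3. Other than the fewer arrays or probes, the cause of these shifts was not tested. Deviations from the group means on same-numbered arrays of different groups correlated at -0.748 to 0.749, over 0.1 in 6 of 18 pairs. Array 1 of the wtGR dexamethasone, wtGR 15d-PGJ2 and GR3KR dexamethasone groups correlated at 0.682 to 0.749. Array 2 of wtGR 15d-PGJ2 and of GR3KR dexamethasone correlated at -0.748. With group means of only 3 arrays, these values cannot settle whether the numbers pair the samples. With the replicate block A was 9 and C 3204, and PHACTR3 lost its difference of effects (adjusted p 0.0541) and ARRDC2 its line difference (adjusted p 0.0724). A block by chip was not run because the headers identify no chip. Detection sets the limit for GLUL and for IRS2 and PHACTR3 (ILMN_2411864) in GR3KR cells with 15d-PGJ2.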
